A study of Mus musculus with 6 samples.

Results

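Melanin is made in pigment cells by a small set of genes, and 8 of them were followed here in mouse brain tumours: the enzymes Tyr, Tyrp1 and Dct, the melanosome proteins Slc45a2, Oca2 and Mlana, the transcription factor Mitf and the receptor Kit. They were taken by symbol from the 34591 gene rows of the count tables, and all 8 were found. The set was chosen by the level of Dct, which varied widely among the libraries, so its values are given below as a description, with no test. Of the 8 genes, 5 passed the filter on low counts (Dct, Slc45a2, Oca2, Mitf and Kit) among 16768 genes tested, and Tyr, Tyrp1 and Mlana did not.

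The tumours are models of WNT medulloblastoma, a hindbrain tumour in which the WNT pathway is switched on. By their labels, 3 libraries are of the control medulloblastoma model and 3 of the sh2-Ift88 medulloblastoma model (written shIft88), in which a short hairpin RNA is directed against Ift88, a subunit of the transport complex that builds primary cilia. The sources used here do not give strain, age, the alleles of the model, the hairpin of the controls or whether each library came from a separate animal, so the p-values measure the spread between these libraries, which may in part be technical. Library totals ran from 26802618 to 33772559 gene counts. Ift88 was at 13.8, 19.7 and 13.7 CPM (counts per 1000000, scaled here with TMM factors) in control 1, 2 and 3 and at 14.7, 16.03 and 14.4 CPM in shIft88 1, 2 and 3. The log2 fold change of the targeted transcript was -0.064 with a standard error of 0.27 and did not pass (adjusted p = 0.9995, edgeR's quasi-likelihood test), so it gives no check of the group labels. Of 1097 olfactory receptor genes, a family of sensory receptors silent in most tissues, 21 to 31 had a count in control 1, control 3 and shIft88 1, and 340 to 497 in control 2, shIft88 2 and shIft88 3. These latter libraries thus carried reads of silent genes, which bears on the low pigment genes below.

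In a melanocyte, tyrosinase (Tyr) oxidises tyrosine and DOPA in the rate-limiting step of melanin synthesis. Its relatives Dct (dopachrome tautomerase) and Tyrp1 act on later intermediates of the eumelanin branch inside the melanosome. Mitf, a basic helix-loop-helix factor, binds a motif called the M-box in the promoters of these enzymes, and Kit, the receptor tyrosine kinase for stem cell factor, signals to Mitf and supports pigment cell survival. Outside pigment cells Dct is also expressed in parts of the developing brain, Mitf in several neural and blood cell types, and Kit in mast cells and in inhibitory interneurons of the cerebellum.

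The promoters of the 3 enzymes are shown because they hold the same Mitf motif while the levels of the genes lay far apart. RefSeq's table on build GRCm38.p6 held promoters of 6 of the 8 genes (Dct, Tyr, Tyrp1, Oca2, Mitf and Kit). The 250 bases before each annotated start read 5' to 3' as follows, with the M-box letters TCATGTG on either strand in capitals.
Dct (chr14:118052247-118052496, minus strand): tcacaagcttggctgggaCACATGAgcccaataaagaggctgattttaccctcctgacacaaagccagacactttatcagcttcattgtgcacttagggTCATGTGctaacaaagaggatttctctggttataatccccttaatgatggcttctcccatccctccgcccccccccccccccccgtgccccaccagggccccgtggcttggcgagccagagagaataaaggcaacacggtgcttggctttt
Tyr (chr7:87493513-87493762, minus strand): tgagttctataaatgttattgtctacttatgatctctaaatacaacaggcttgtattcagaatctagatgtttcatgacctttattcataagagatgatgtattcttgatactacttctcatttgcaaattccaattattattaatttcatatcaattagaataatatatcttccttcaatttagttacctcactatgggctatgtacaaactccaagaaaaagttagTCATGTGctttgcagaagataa
Tyrp1 (chr4:80833963-80834212, plus strand): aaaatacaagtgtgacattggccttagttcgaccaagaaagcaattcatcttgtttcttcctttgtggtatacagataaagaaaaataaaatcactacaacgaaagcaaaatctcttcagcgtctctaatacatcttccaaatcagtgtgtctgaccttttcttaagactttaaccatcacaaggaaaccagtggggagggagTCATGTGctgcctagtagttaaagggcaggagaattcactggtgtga
The motif TCATGTG (or CACATGA on the other strand) was present in 3.25% of 32851 promoter windows of the same length. Dct held it at 151 and, on the other strand, at 232 bases before the start, Tyr at 22 and Tyrp1 at 47. All 3 windows also held the longer form TCATGTGCT, searched after the sequences were read, which 0.335% of windows had on either strand. The M-box core CATGTG that it contains was in 12.3% of windows and, among the members, also in Oca2. None of the 9 windows of the members held the E-box CACGTG (6.02% of windows) or the SOX motif AACAAT (9.42%). The TCF/LEF motif CTTTGA (13.8%) was in 1 of them, the furthest downstream of 3 Mitf starts, at 205 bases before the start. These matches describe letters and not binding.

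Dct was abundant in 5 of the 6 libraries and nearly absent from the remaining library. It was at 33.3, 372 and 0.198 CPM in control 1, 2 and 3 and at 229, 189 and 318 CPM in shIft88 1, 2 and 3. Control 3 stood alone with 8 reads of Dct, against 1099 to 11440 reads elsewhere. Control 2 was the highest of all, and control 1 lay below every shIft88 library, so the groups overlapped and the controls alone covered the whole range. The highest level was 1881 times the lowest. Taken on log2(CPM + 0.5), which shortens the range of low values, Dct spanned 9.06 log2 units. That was wider than the range of 99.9% of the genes with a mean of at least 1 CPM. The shIft88 libraries differed from each other far less than the controls did, with 245 ± 66.1 CPM against 135 ± 206 CPM (mean ± SD, n = 3 each). Scaled by library totals alone, shIft88 3 was at 189.9 CPM and became the lowest of its group, while control 3 stayed at 0.245 CPM.

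**Figure D1:**
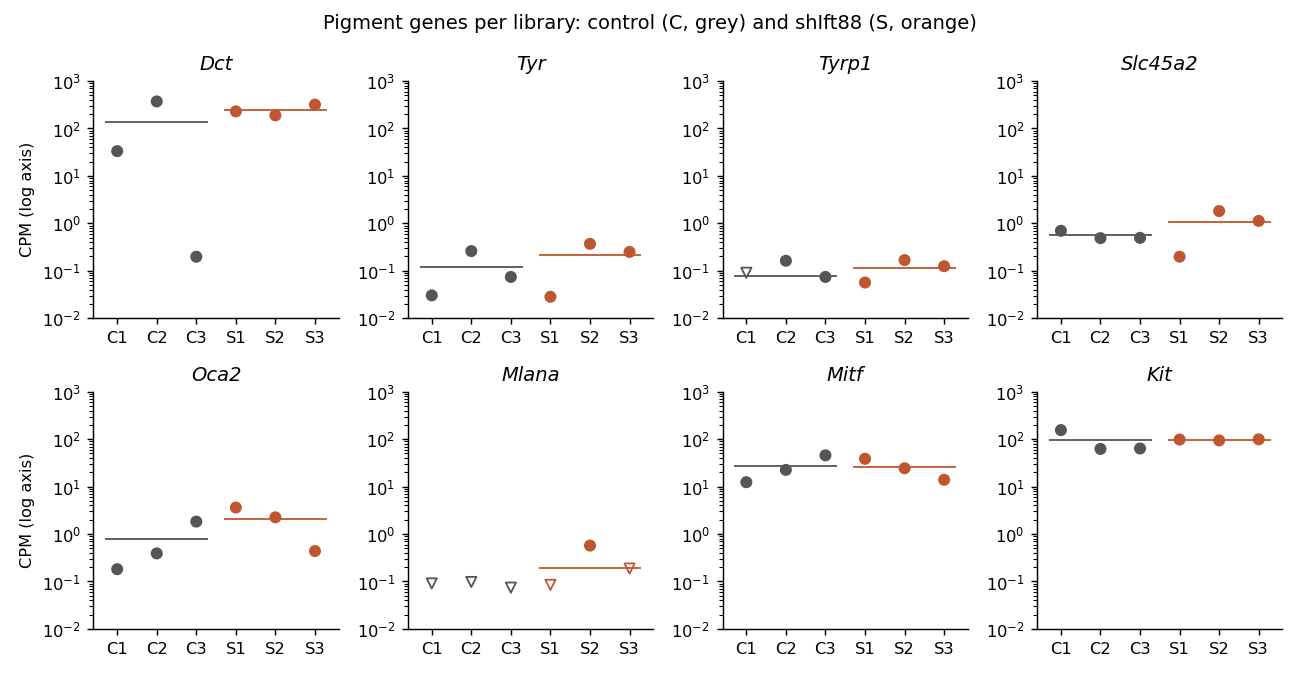
Level of the 8 pigment genes in CPM (log axis) in each control (C, grey) and shIft88 (S, orange) library; horizontal lines are group means and open triangles mark libraries without a count, drawn at the level that 3 counts would give. Dct runs from 0.198 CPM in control 3 to 372 CPM in control 2, whereas Kit stays between 62.3 and 155 CPM.

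The other enzymes of the same pathway were close to undetected in every library. Tyr, which starts melanin synthesis, had 1, 8 and 3 reads in control 1, 2 and 3 and 1, 11 and 4 reads in shIft88 1, 2 and 3. Tyrp1 had 0, 5 and 3 reads in the controls and 2, 5 and 2 in the shIft88 libraries. For both genes the highest counts were in control 2 and shIft88 2, which are among the libraries with reads of silent genes. A count of 0 in control 1 allows a Tyrp1 level of up to 0.0909 CPM, a limit that covers counting error only.

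Per kilobase of annotated exon, Tyr lay below the 99th percentile of olfactory receptor genes in all 6 libraries. Its highest value was 0.0612 CPM per kb in shIft88 2, where that percentile was 0.106 CPM per kb. Tyrp1 exceeded the percentile only in control 3, at 0.0273 against 0.0172 CPM per kb and on 3 reads. By that cut neither gene stood above the silent genes at this depth, apart from those 3 reads. They still lay in the upper part of that range in the libraries with reads of silent genes. Tyr exceeded 97.6% of olfactory receptor genes in control 2, 97.1% in shIft88 2 and 91.8% in shIft88 3. For Tyrp1 the shares were 98.6%, 97.1% and 93.1%.

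Dct was at 15.1, 169 and 0.0898 CPM per kb in control 1, 2 and 3 and at 104, 85.8 and 144 CPM per kb in shIft88 1, 2 and 3. Beside it, Tyr was at most 0.0612 and Tyrp1 at most 0.0617 CPM per kb in any library. No ratio to either gene is given, since it would rest on at most 11 reads of Tyr and 5 of Tyrp1 in any library. In control 3 the levels lay close together, on 8 reads of Dct and 3 each of Tyr and Tyrp1.

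**Figure D2:**
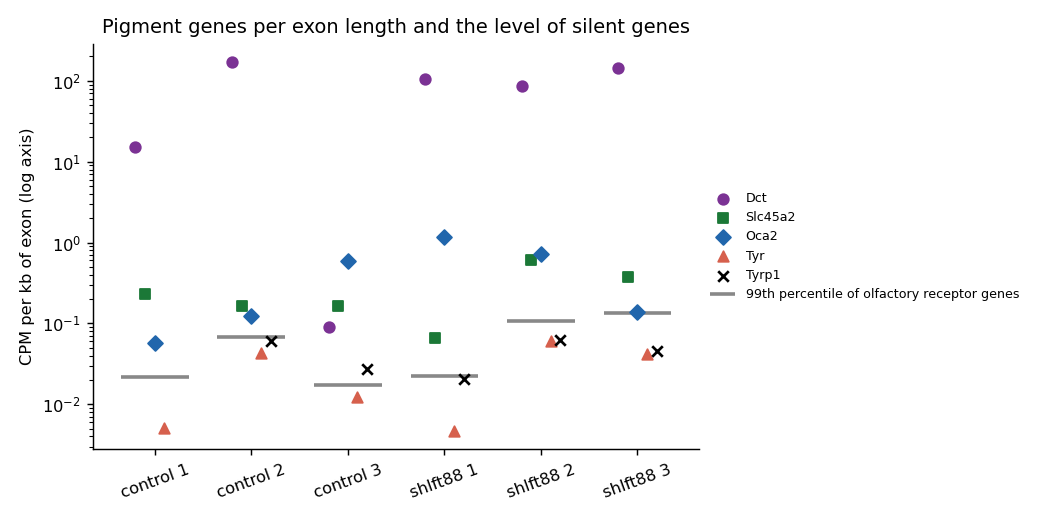
Levels of Dct, Slc45a2, Oca2, Tyr and Tyrp1 in CPM per kb of exon (log axis) by library, with grey bars at the 99th percentile of olfactory receptor genes in the same library. Tyr lies below the bar in all 6 libraries, and Dct lies above it in all 6, nearest to it in control 3 at 0.0898 CPM per kb.

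Of the melanosome proteins, the transporters were low and Mlana was found in a single library. Slc45a2, a transporter that keeps melanosome pH suited to tyrosinase, was at 0.697, 0.488 and 0.494 CPM in control 1, 2 and 3 and at 0.198, 1.81 and 1.12 CPM in shIft88 1, 2 and 3. The shIft88 libraries included both the lowest and the highest value, so the groups overlapped. Per kb it ran from 0.0664 to 0.608 CPM and was above the 99th percentile of olfactory receptor genes in all 6 libraries.

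Oca2, the channel protein altered in pink-eyed dilution, had levels of 0.182, 0.390 and 1.83 CPM in control 1, 2 and 3 and of 3.62, 2.25 and 0.437 CPM in shIft88 1, 2 and 3. Control 3, shIft88 1 and shIft88 2 were the high libraries and the other 3 were low, a split that crosses the groups. It exceeded the 99th percentile of olfactory receptor genes in all 6 libraries, in shIft88 3 narrowly, at 0.140 against 0.135 CPM per kb. Control 3, which had almost no Dct, was thus among the libraries higher in Oca2.

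Mlana, a melanosome protein and a defining melanocyte marker, had 17 reads in shIft88 2 (0.571 CPM) and 0 in each of the other 5 libraries. A count of 0 allows up to 0.187 CPM in shIft88 3, the shallowest after scaling. In shIft88 2 its 0.630 CPM per kb was above the 99th percentile of olfactory receptor genes.

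Mitf was present in all libraries and did not follow Dct. Its level was 12.4, 22.5 and 45.6 CPM in control 1, 2 and 3 and 38.6, 24.4 and 13.9 CPM in shIft88 1, 2 and 3. The highest value of this factor was in control 3, the library with 8 reads of Dct, and the second lowest was in shIft88 3, where Dct was the second highest. The ranks in shIft88 3 depended on the scaling. By library totals alone Mitf was lowest there, at 8.32 CPM, and Dct, at 189.9 CPM, lay below control 2 and the other shIft88 libraries. The groups overlapped, with 26.8 ± 17.04 CPM in controls and 25.6 ± 12.4 CPM in shIft88 libraries. The row counts reads of all Mitf starts together, and the annotation places the gene model Gm15531 over Mitf, so reads shared between them cannot be told apart here.

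Mitf moved with the summed level of mature neuron markers, though not with each marker. The 11 neuron markers summed to 65.3, 154 and 412 CPM in control 1, 2 and 3 and to 209, 156 and 43.1 CPM in shIft88 1, 2 and 3, so Mitf and the neuron sum shared their 2 highest libraries, control 3 and shIft88 1, and their 2 lowest. Snap25, the most abundant marker on average, was also highest in control 3, at 199 CPM. Syt1 was instead highest in shIft88 2, at 69.3 CPM, and Thy1 in shIft88 3, at 23.4 CPM. By Pearson correlation of log2(CPM + 0.5) over the 6 libraries, the named genes most like Mitf among 14740 were Phactr1 (r = 0.998), Pcsk1n (0.996), Hapln4 (0.996), Hivep2 (0.994) and Dusp26 (0.992). Pcsk1n encodes a neuroendocrine protein and Hapln4 a link protein of the matrix around neurons. All genes of a library share its depth, its scaling and its mix of cells, and these differed between libraries, so these r values describe 6 points and carry no test. In bulk tumours a change in the number of cells of a type and in the RNA per cell cannot be told apart, and the part of neurons in the level of Mitf was not tested.

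Oca2 went partly the same way. The named genes most like it were Fgfr1 (r = 0.999), Lmbrd2 (0.983), Myh14 (0.972), Tacc2 (0.967) and Gng7 (0.957). Fgfr1, a fibroblast growth factor receptor, ran from 119.7 CPM in control 1 to 206 CPM in shIft88 1, a far narrower range than that of Oca2. For Slc45a2 the most alike were Srcrb4d (0.983), Sepsecs (0.977), Rnf170 (0.975), Ulk2 (0.967) and Amz1 (0.967).

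Kit varied least of the 5 members that passed the filter in proportion to its level, 2.49-fold between the extremes. It was at 155, 62.3 and 63.7 CPM in control 1, 2 and 3 and at 98.1, 94.2 and 99.1 CPM in shIft88 1, 2 and 3. The shIft88 libraries were nearly level and lay between control 1 and the other controls, so their spread of 2.59 CPM (SD, n = 3) stood beside 53.3 CPM in controls. That evenness depended on the scaling, since by library totals alone shIft88 3 was at 59.2 CPM, below control 2 at 68.8 CPM.

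Its ligand Kitl, stem cell factor, was also highest in control 1, at 145 CPM, against 26.3 and 43.6 CPM in the other controls and 31.1, 44.3 and 64.7 CPM in the shIft88 libraries. The named genes most like Kit over the 6 libraries were Tbrg1 (r = 0.996), Rhou (0.994), Tmem161a (0.992), Nkd1 and Fli1 (both 0.990). Nkd1, a feedback inhibitor induced by WNT signalling, measured 876, 263 and 300.3 CPM in control 1, 2 and 3 and 534, 463 and 556 CPM in shIft88 1, 2 and 3, which puts all 6 libraries in the same order as Kit. Nkd1 was chosen by that likeness, and the shared order depended on the scaling. By library totals alone Kit was lowest in shIft88 3. Nkd1 had 8907 reads there, against 8096 in control 2, whose total was larger. Among markers of mast cells, which carry Kit, the protease genes Cpa3, Tpsb2, Tpsab1, Mcpt4 and Cma1 were at most 0.125 CPM in any library, and the list sum was 36.2, 12.3 and 8.03 CPM in controls and 8.26, 49.0 and 9.12 CPM in shIft88 libraries, mostly from Hdc and Gata2. The 15 cerebellar interneuron markers summed to 72.8, 132 and 178 CPM in controls and 133, 128 and 58.2 CPM in shIft88 libraries, so that of the controls the library richest in Kit had the lowest sum. Prkcd and Lypd6 made up most of it in control 1, at 41.5 and 25.6 CPM, and in shIft88 3, at 11.9 and 31.6 CPM. Gad2 was at 0.0303 and 0.250 CPM in these libraries, so there the sum says little of the other markers. The part of these cell types in the level of Kit was not tested.

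**Figure D3:**
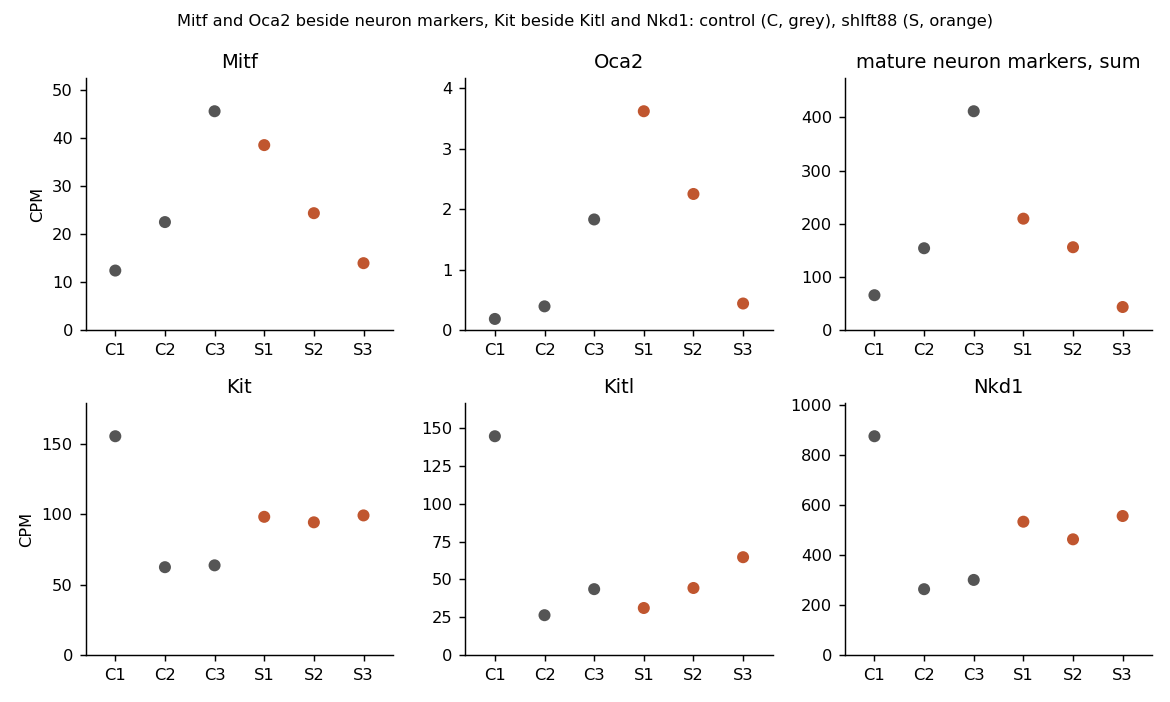
Levels in CPM by library (C, control, grey; S, shIft88, orange) of Mitf and Oca2 beside the summed level of 11 neuron markers, and of Kit beside its ligand Kitl and the WNT target Nkd1. Mitf and the neuron sum share control 3 as their highest library, and Kit, Kitl and Nkd1 share control 1.

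The comparison of shIft88 with control libraries called none of Slc45a2, Oca2, Mitf and Kit. Across all 16768 genes, edgeR's quasi-likelihood test with Benjamini-Hochberg adjustment called 0 (0% of genes), and 541 had an unadjusted p under 0.05 (3.23%). DESeq2 called 58 and limma-voom 0, with none of Slc45a2, Oca2, Mitf and Kit among them. Slc45a2 had a log2 fold change of 0.89 (standard error 0.79), Oca2 of 1.39 (1.04), Mitf of -0.066 (0.55) and Kit of 0.051 (0.38), each with an adjusted p of 0.9995 by edgeR's quasi-likelihood test. Dct, given without a test, had 0.86 (standard error 1.63). Apart from Dct, the log2 fold change was above 0 for Slc45a2, Oca2 and Kit and below 0 for Mitf, where it was above 0 for 48.7% of all genes tested. For no member did the groups separate, where 4.70% of all genes had every shIft88 library above every control and 3.69% the reverse.

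The value of Dct rested on single controls. It was 3.87 without control 2 and 0.27 without control 3, and limma-voom, which averages logs, gave 4.40. Within the libraries with reads of silent genes, where control 2 is the only control, it turned to -0.56, and within the other 3, where shIft88 1 is alone, it was 3.77. Slc45a2 was 1.58 within the former and -1.60 within the latter, and Oca2 was 1.78 within both.

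**Figure D4:**
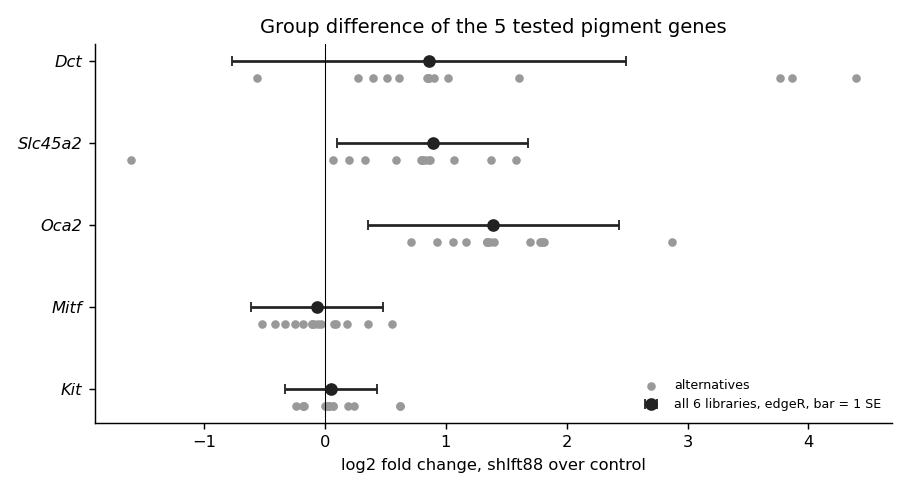
Log2 fold change of shIft88 over control for the 5 pigment genes that passed the filter on low counts, Dct as a description. Black points with bars give the edgeR value ± 1 standard error over all 6 libraries and grey points the alternatives. The values of Dct spread from -0.56 to 4.40, and those of Oca2 stay above 0, from 0.71 to 2.87.

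Genes that moved with Dct from library to library were looked for over all expressed genes. The named genes most like it among 14740 were Dpcd (r = 0.996), Sh3d19 (0.995), Fam71e1 (0.993), Morn4 (0.992) and Ssbp3 (0.991). All 5 were lowest in control 3 and second lowest in control 1, as Dct was, which a choice by likeness to Dct favours. The r values describe 6 points and carry no test. The ranges of these genes were narrow beside the 9.06 log2 units of Dct: Sh3d19 ran over 1.54 and Dpcd over 0.447 log2 units. Sh3d19 was at 92.0, 145 and 49.7 CPM in controls and at 139.8, 129 and 131 CPM in shIft88 libraries.

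The chromosomal neighbours of Dct shared its highest and lowest libraries, but not its order among the others, and varied less. Gpc6, a cell surface proteoglycan gene next to Dct in RefSeq's GRCm38 order, was at 77.6, 259.5 and 41.6 CPM in control 1, 2 and 3 and at 161, 187 and 119 CPM in shIft88 1, 2 and 3. It shared with Dct its highest library, control 2, and its lowest, control 3. Tgds, on the other side, was at 15.8, 20.3 and 7.93 CPM in controls and at 11.9, 19.6 and 16.7 CPM in shIft88 libraries, again highest in control 2 and lowest in control 3. Within the shIft88 group Gpc6 was lowest in shIft88 3, where Dct was highest of that group. Tgds in shIft88 1 lay below control 1, whereas Dct lay above it. No annotated gene overlaps Dct in that table.

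Control 3 also stood apart in genes of the fixed lists that were chosen after their values were seen. Otx2, a homeobox factor of the forebrain, midbrain and pigment epithelium, was at 31.3 CPM in control 3 and at 260.3 to 427 CPM in the other 5 libraries. Dcn, the matrix proteoglycan decorin, was at 80.3 CPM there and at 1019.6 to 1399 CPM elsewhere. Sp5, a direct WNT target, was at 2.69 CPM against 38.7 to 142 CPM elsewhere. Axin2, also a direct WNT target, did not share that gap and was at 361 CPM in control 3 and at 320 to 764 CPM elsewhere. The 17 WNT target genes summed to 6290, 3428 and 3939 CPM in controls and to 5416, 4169 and 4857 CPM in shIft88 libraries. Control 3 had the highest neuron marker sum, given above, and their part in the low Dct was not tested.

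**Figure D5:**
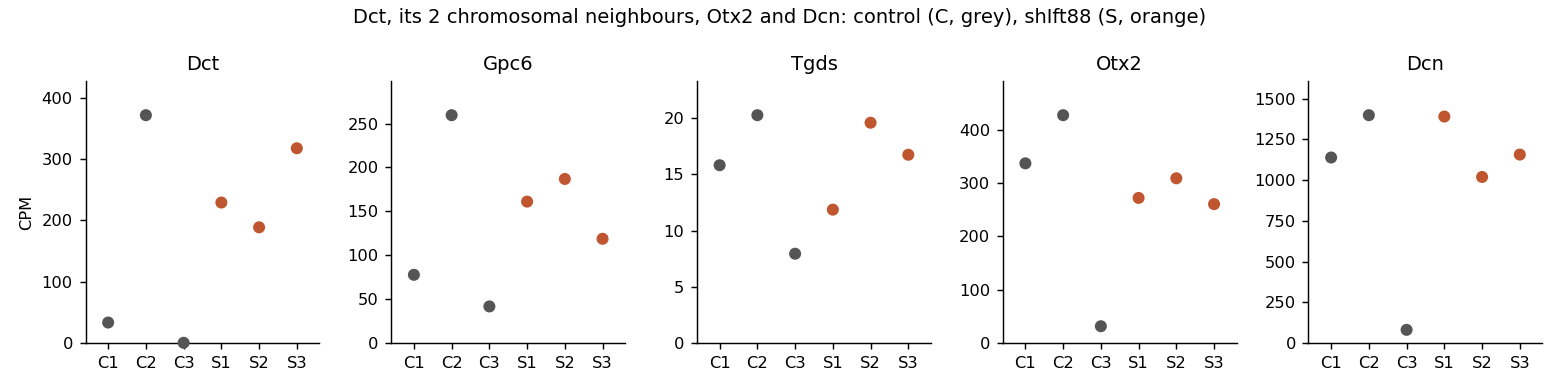
Levels in CPM by library (C, control, grey; S, shIft88, orange) of Dct, its chromosomal neighbours Gpc6 and Tgds, and Otx2 and Dcn. Each gene is lowest in control 3, where Dct is at 0.198 CPM and Otx2 at 31.3 CPM.

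Defining markers of melanocytes were checked beside Dct and were near 0. Pmel, the melanosome fibril protein, was at 0.303 to 0.562 CPM, Gpr143 at most at 0.396 CPM, Mc1r at most at 0.437 CPM, and Tspan10 at most at 0.571 CPM in any library. Sox10, a neural crest and glial factor that activates Mitf and Dct in melanocytes, was at 0 CPM in shIft88 1 and shIft88 3, both with abundant Dct, and highest at 0.766 CPM in control 3. Slc24a5, a melanosome cation exchanger, reached 1.19 CPM in shIft88 1 and was at most 0.250 CPM elsewhere. The 14 markers, of which 11 to 14 had a count in each library, summed to 28.9, 13.7 and 10.9 CPM in controls and to 15.9, 27.0 and 28.9 CPM in shIft88 libraries. Most of that sum came from Trpm1, Mlph and Pax3, which reached 16.5, 7.53 and 5.36 CPM. The sum was highest in control 1 and shIft88 3 and did not follow Dct.

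Markers of the retinal pigment epithelium were mixed. Of its visual cycle genes, Rpe65 was at most 0.302 CPM, Rgr at most 0.134 CPM and Lrat at most 0.312 CPM in any library, while Rlbp1 reached 2.48 CPM in control 1 and 2.25 CPM in shIft88 2. The lactate transporter Slc16a8 reached 4.02 CPM in shIft88 1 and the chloride channel Best1 1.37 CPM in shIft88 3. The 12 markers summed to 574, 553 and 77.0 CPM in controls and 1806, 496 and 427 CPM in shIft88 libraries, through Otx2, the retinol receptor Stra6 and Ttr. Ttr, also the most abundant gene of the choroid plexus, was at 1389 CPM in shIft88 1 and at most 0.739 CPM in any other library. Foxd3, a factor of the early neural crest, was at most 0.250 CPM.

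The wider melanosome machinery, which also serves lysosome-related organelles of other cell types, was expressed in all libraries and did not differ by the test. Of 23 genes of melanosome biogenesis and traffic, all passed the filter, 12 were above and 11 below 0 in log2 fold change, and the median was 0.0061 beside -0.012 for all genes tested. None was called, and the groups separated upward for Bloc1s3 and downward for Hps6, beside 4.70% and 3.69% of all genes. Hps3 and Bloc1s3, the genes of smallest p, had log2 fold changes of 0.60 and 0.65 with standard errors of 0.28 and 0.35. Rab38, which with Rab32 carries tyrosinase and Tyrp1 to melanosomes, was at 38.2, 6.11 and 2.50 CPM in controls and 3.82, 13.3 and 20.9 CPM in shIft88 libraries. Myo5a, the myosin that moves melanosomes along actin and the most abundant of the list, was at 59.6, 118 and 159 CPM in controls and at 120.2, 104 and 82.3 CPM in shIft88 libraries.

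Of 11 genes of melanosome structure, ions and pH, 9 were tested, 5 above and 4 below 0, with a median of 0.078. The smallest p were those of Slc7a11, the cystine transporter that favours pheomelanin, with 1.35 and a standard error of 0.60, and of the copper pump Atp7a, with 0.39 and 0.44. Slc7a11 was at 60.4, 53.9 and 27.0 CPM in controls and at 235, 58.7 and 66.7 CPM in shIft88 libraries, so a single library was far above the rest. Mfsd12, a lysosomal and melanosomal transporter and the most abundant of the list, was at 129, 92.03 and 44.6 CPM in controls and 36.6, 69.8 and 140.4 CPM in shIft88 libraries.

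Signals of pigment cells were mixed. Of 12 matched genes, 11 were tested, 4 above and 7 below 0, with a median of -0.048 and none called. Edn3, the ligand of the melanoblast receptor Ednrb, was at 0.242, 0.358 and 0.420 CPM in controls and at 1.56, 0.638 and 5.12 CPM in shIft88 libraries, with a log2 fold change of 2.81 (standard error 0.85) that did not pass (adjusted p = 0.9995, edgeR's quasi-likelihood test). Its receptor Ednrb ran from 4.97 CPM in control 1 to 68.6 CPM in shIft88 2. Pomc, the precursor of melanocyte-stimulating hormone, was at 2.03, 1.30 and 0.964 CPM in controls and at 0.424, 0.638 and 0.687 CPM in shIft88 libraries, and did not pass either. Nras, a small GTPase that relays receptor signals and the most abundant of the list, was at 106, 149.8 and 107 CPM in controls and at 181, 85.7 and 83.6 CPM in shIft88 libraries. Edn3 and Pomc were the members of that list whose groups did not overlap, where 4.70% and 3.69% of all genes did so upward and downward.

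Of 18 pigment cell transcription factors, 16 were tested, 6 above and 10 below 0, with a median of -0.21, no call and no member whose groups separated. Tfeb and Sox5 had the smallest p, with log2 fold changes of -1.03 and 0.85 and standard errors of 0.52 and 0.71. Tfeb and Tfe3, relatives of Mitf that share its motif, were highest in control 1, at 51.1 and 24.7 CPM, where Mitf itself was lowest. Ctnnb1, which encodes beta-catenin and was the most abundant of the list, was at 1350.4, 836 and 753 CPM in controls and at 799, 842 and 955 CPM in shIft88 libraries. In the list of 15 Mitf targets outside pigment, all tested, 6 were above and 9 below 0, with a median of -0.34 and no call. The groups separated for 3 of the 15, upward for Mcoln1 and Dapk1 and downward for Cdkn1a, beside the 4.70% and 3.69% of all genes. Its smallest p were those of Cdkn1a (-1.26, standard error 0.49) and Mcoln1 (0.43, standard error 0.23). Trpm1, the ion channel gene named for melanoma and a Mitf target, was at 16.5, 6.02 and 4.67 CPM in controls and at 7.75, 11.5 and 14.1 CPM in shIft88 libraries, thus lowest where Mitf was highest.

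The remaining tissue lists were scored by their summed level in each library, and none of their tested members was called. The 10 Purkinje cell markers summed to between 602 and 1025 CPM in controls and between 621 and 803 CPM in shIft88 libraries. Most of that sum was Itpr1 in every library, so it says little of the other markers. Car8 (0.212 to 98.4 CPM), Pcp2 (0.0303 to 19.2 CPM) and Calb1 (0.151 to 77.4 CPM) each rose from a minimum in control 1 to a maximum in control 3. Fam107b went the opposite way, from 259 down to 36.3 CPM. The 12 granule cell markers summed to between 65.3 and 627 CPM in controls and between 113 and 510 CPM in shIft88 libraries. The 15 oligodendrocyte markers summed to between 376 and 766 CPM and between 355 and 750 CPM. Pdgfra, at 248 to 595 CPM, made up most of that sum in every library. Mbp ran from 0.874 CPM in shIft88 3 to 88.7 CPM in control 3. Meningeal fibroblast markers, 13 genes, summed to between 2453 and 3406 CPM and between 2310 and 3665 CPM, and the 12 choroid plexus and ependyma markers to between 157 and 603 CPM and between 387 and 2471 CPM. The 13 microglia and macrophage markers summed to between 287 and 307 CPM and between 124 and 415 CPM, and the 10 endothelium markers to between 85.6 and 159 CPM and between 103 and 155 CPM. Every one of these ranges overlapped between the groups. Over the tested members of the tissue marker lists given here, the median log2 fold change ran from -1.17 for the oligodendrocyte list to 1.03 for the choroid plexus list, the latter with its summed level highest in shIft88 1, and it was -0.89 for mature neurons. Of 14 tested oligodendrocyte markers, 4 were above 0 and 10 below. Bcas1, at 2.67 (standard error 0.41), was the 1 whose groups separated, upward, as they did for 4.70% of all genes.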

How the data were processed

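Libraries of total RNA were made with a stranded kit, per the labels' protocols, and the submitters' processing notes name BWA and mm9. The counting program, annotation and strand setting are not stated in the labels. What the authors deposited are raw read counts by gene, in 1 table per library with no normalization. The closing tallies of each table were left out. Reads without a feature took 18.8% to 39.5% of tallied reads.

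The 3 shIft88 libraries were compared with the 3 controls over all genes with edgeR 4.0.16 in R 4.3.3 (filterByExpr, TMM factors, two-sided quasi-likelihood test with robust fitting, Benjamini-Hochberg adjustment at 0.05), which was tested on simulated data. TMM factors lay between 1.05 and 1.24 except for shIft88 3, at 0.598, so CPM there are raised relative to library totals. Values per kb use exon lengths of GENCODE M21 (GRCm38), whose build differs from that of the counts. Promoters are RefSeq's (GRCm38.p6). Olfactory receptor genes served as the level of silent genes, over the 1091 of 1097 with an annotated length.

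The members and lists were chosen with earlier results of these data known. Replicate numbers follow accession order. Named genes are the members, Ift88, from each pigment list the 2 with the smallest p that reach 1 CPM on average, the most abundant gene of the melanosome, signalling and transcription factor lists, and for each tested member the 5 genes of highest correlation that have a symbol of their own. Other genes named from the lists, such as Rab38, Ednrb, Kitl, Trpm1, Tfe3 and the single melanocyte and tissue markers, were chosen after their values were seen. Tissue lists are given by their summed level instead, and 1 of them is not reported here. Alternatives were DESeq2 size factors, library totals, DESeq2 1.42.0, limma-voom (limma 3.58.1), no filter, a filter of 1 CPM in 3 libraries, each library left out, a term for libraries with more than 100 olfactory receptor genes detected and, chosen after seeing the data, fits within these and within the other libraries.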

Additional observations from a re-analysis of the deposited data

How the results depend on the processing

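No paired analysis was possible because the labels give no replicate numbers that could pair libraries across the groups. Of 15 alternatives, 13 left the number of genes called at 0, DESeq2 called 58 (45 higher and 13 lower) and edgeR with no low-count filter called 6 (5 of them higher); the cause was not tested. With each library left out in turn it stayed at 0. Dct is given without a test, and no alternative called Slc45a2, Oca2, Mitf or Kit. Their smallest adjusted p was 0.867, for Kit without control 1 (edgeR's quasi-likelihood test). Tyr, Tyrp1 and Mlana were not looked up in the fit with no filter. The log2 fold change of Oca2 kept its direction in all 15, that of Dct in 14 of 15 and that of Slc45a2 in 13 of 14 (it did not pass the filter of 1 CPM), turning to -0.56 within the libraries with reads of silent genes and to -1.60 within those without. With libraries left out, Oca2 ran from 0.71 to 2.87 and Slc45a2 from 0.20 to 1.37. Mitf and Kit lay near 0 and changed sign. Mitf was 0.078 with limma-voom, 0.090 with the term for reads of silent genes, 0.36 within the libraries without them, 0.55 without control 3 and 0.18 without shIft88 3 (lowest -0.52, without shIft88 1). Kit was -0.24 with library totals alone, -0.18 within the 3 libraries that lack them, -0.18 without control 2 and -0.17 without control 3 (highest 0.62, without control 1). Depth limits Tyr, Tyrp1 and Mlana, with 28, 17 and 17 reads over all libraries, to statements of detection.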

Other observations

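Other genes of the fixed lists had values of their own, all chosen after their values were seen. Hdc, which makes histamine, reached 30.0 CPM in control 1 and 41.1 CPM in shIft88 2 and between 0.890 and 5.31 CPM in the other 4 libraries, while the mast cell protease Cpa3 was at most 0.125 CPM in any library. Stra6, the retinol receptor, was at 43.2 CPM in control 3 and at 121 to 233 CPM in the other 5. Sox9, a factor of neural and glial progenitors, was at 12.1 CPM in control 3 and at 29.4 to 107 CPM elsewhere, and Sox5 at 3.19 CPM there and at 16.2 to 43.2 CPM elsewhere. Gpnmb, a glycoprotein of melanosomes and macrophages, reached 76.8 CPM in control 1 and 57.2 CPM in shIft88 2 and between 11.4 and 17.7 CPM in the other 4, the same pair of libraries as Hdc. Rxfp3, a neuropeptide receptor gene next to Slc45a2, was at 60.2 CPM in shIft88 2, where Slc45a2 was highest, and at 0.198 CPM in control 3 and 0.481 CPM in shIft88 1.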
